A study of Homo sapiens with 6 samples.

Results

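The regions described here are the peaks of trimethylated lysine 4 of histone H3 (H3K4me3) that lay far from every listed transcription start site in the human leukaemia line HL-60. A peak was taken as far when the smallest distance between its centre and a listed start site exceeded 5000 bp and the peak spanned no such site. The rule took 5644 of the 65225 distinct peaks in the 4 deposited lists, 1907 of them in the JMJD3 knockout list and 3737 in the parental list. HL-60 is an established promyelocytic line that the labels class as myeloblast, and the H3K4me3 libraries came from HL-60 cells carrying a JMJD3 knockout and from parental HL-60 cells, both grown in serum-supplemented medium with no further treatment given. The labels do not say how the knockout was made or whether it is 1 clone. Each genotype had 1 library per mark, so there is no replicate spread to set a difference against, no test was run and no p-value is given. The libraries of the second mark, H3K27me3, are used only where named, and the 2 input libraries were not analysed here.

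H3K4me3 is laid down by SET1 and MLL methyltransferase complexes and is strongest at active or poised promoters. Active enhancers, the regulatory elements that act on promoters from a distance, mostly carry H3K4me1 instead, but strong enhancers and start sites missing from an annotation can carry H3K4me3 as well. JMJD3, the product of KDM6B, strips methyl groups from H3K27me3, the mark of Polycomb repression, and is known in myeloid cells as an enzyme induced by inflammation. Each deposited line pairs a peak with a transcript whose start site lies within 20 kb, so "far" spans 5 to 20 kb, and a start site outside the lists could not count. The files give positions, distances and a distance score but no read counts or heights, so the depth of the libraries is unknown, and width is the extent of a called region rather than the amount of the mark.

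To show 2 of the genes with broad far H3K4me3 in both genotypes, the 300 bases around their start sites follow, from 250 bases before to 50 after, as given by RefSeq for GRCh38.p14, 5′ to 3′, with CpG dinucleotides in capitals. ITGA1 (chr5:52787666-52787965, plus strand) had no H3K4me3 peak within 5 kb of a listed start in either genotype. CAT (chr11:34438684-34438983, plus strand) had one in both.
ITGA1: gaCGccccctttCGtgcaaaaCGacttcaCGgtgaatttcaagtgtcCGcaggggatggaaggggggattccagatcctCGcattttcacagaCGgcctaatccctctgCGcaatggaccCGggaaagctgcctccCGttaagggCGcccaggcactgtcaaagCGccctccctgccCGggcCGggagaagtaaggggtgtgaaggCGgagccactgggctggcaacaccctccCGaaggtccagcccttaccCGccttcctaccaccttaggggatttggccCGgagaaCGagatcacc
CAT: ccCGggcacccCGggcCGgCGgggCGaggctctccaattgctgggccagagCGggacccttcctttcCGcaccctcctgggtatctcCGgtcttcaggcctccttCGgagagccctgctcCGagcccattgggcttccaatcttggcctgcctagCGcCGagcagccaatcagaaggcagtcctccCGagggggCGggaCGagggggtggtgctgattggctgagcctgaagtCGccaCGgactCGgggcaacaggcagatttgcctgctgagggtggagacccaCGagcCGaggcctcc
The motif counted is CG, which reads the same on both strands. The ITGA1 stretch held 19 CpG and the CAT stretch 20, against a median of 14 over all promoters of this length in the table, 96.0% of which held at least 1. Of all promoters in the table, 57.1% held fewer CpG than ITGA1 and 58.8% fewer than CAT, so the gene with and the gene without a promoter peak lay close together. Of the 8 genes with most far H3K4me3 in both lists, 4 had a promoter in the table.

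Far peaks were fewer in the knockout list, and by a larger factor than peaks near start sites. There were 1907 far peaks in knockout cells and 3737 in parental cells, a ratio of 0.510 (95% interval 0.483 to 0.539). Peaks that were not far numbered 23036 in knockout and 29733 in parental cells, a ratio of 0.775 (0.762 to 0.788), and the intervals of the ratios do not overlap. Far peaks made up 7.65% of the knockout list (Wilson interval 7.32 to 7.98%) and 11.2% of the parental list (10.8 to 11.5%). They covered 493 kb in knockout cells and 1176 kb in parental cells, which was 5.95% and 6.72% of all H3K4me3 sequence. By covered length the ratio was 0.420 for far peaks and 0.478 for the others, so the classes stood closer together by length than by number. All these intervals cover counting error only, and neighbouring peaks are not independent. When the parental list was cut to its widest peaks so that both lists had the same number, the ratio of far peaks was 0.900, beside 1.01 for the other peaks. This cut removed narrow parental peaks and no knockout peak, so knockout counts and widths stayed as they were.

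The drop in the ratio came before the 5 kb limit and the ratio then changed little with distance. Peaks up to 1 kb from a start had a ratio of 0.791, those at 1 to 2 kb 0.850 and those at 2 to 5 kb 0.566. In the 6 classes of 2.5 kb beyond, it lay between 0.456 (7.5 to 10 kb) and 0.546 (10 to 12.5 kb), and the intervals of all 6 overlap. The median distance of a far peak from its nearest start was 10707 bp in knockout and 10379 bp in parental cells, and 54.8% and 52.9% lay beyond 10 kb. In 67.0% of knockout and 66.9% of parental far peaks only 1 gene was listed within 20 kb, and the rest were near up to 7. The peaks closest to the limit follow, and since they were picked by distance they cannot show whether anything steps there. The nearest knockout peaks inside lay 5003 bp from SERPINE2, 5006 bp from LPCAT2 and 5009 bp from GAPDH, and those just outside lay 4999 bp from MIR23A, 4997 bp from XRN2 and 4995 bp from SLC51A. In parental cells the first peaks inside lay 5001 bp from NR3C1, 5004 bp from CD244 and 5006 bp from GRAMD4, and the first outside lay 4999 bp from BET1L, 4999 bp from CCPG1 and 4991 bp from ITPRIPL2.

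**Figure D1:**
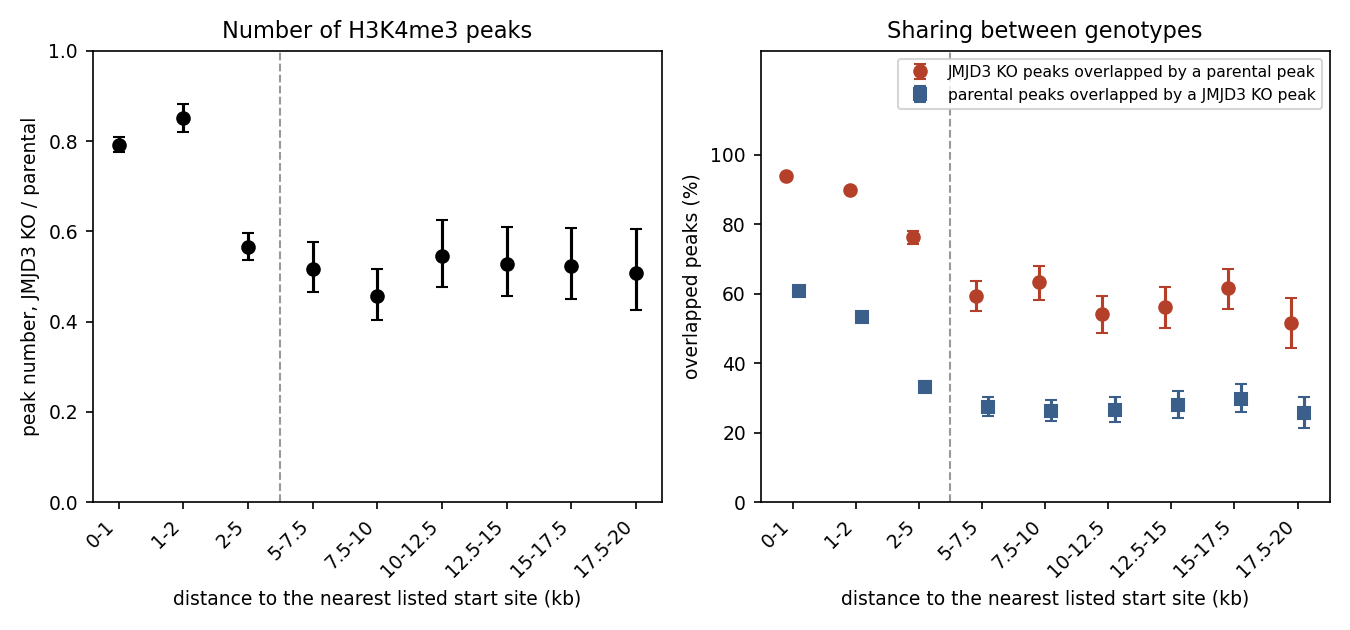
Left, number of H3K4me3 peaks in JMJD3 KO divided by the number in parental cells, by distance from the peak centre to the nearest listed start site in kb; right, share of the peaks of each list overlapped by a peak of the other. Bars are 95% intervals of counting error, the dashed line marks 5 kb, and beyond it the ratio stays between 0.456 and 0.546.

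Far peaks were mostly small in both genotypes. Their median width was 211 bp in knockout cells (quartiles 167 and 291 bp) and 234 bp in parental cells (173 and 354 bp), a ratio of 0.902. The other H3K4me3 peaks had medians of 266 bp in knockout and 387 bp in parental cells, a ratio of 0.687. The median widths of the genotypes were thus closer far from start sites than near them, though far medians lay nearer the narrowest width listed, 146 bp. At that narrowest width stood 10.0% of knockout and 8.67% of parental far peaks, against 5.93% and 3.82% of the others. At the wide end, 10 knockout and 82 parental far peaks reached 1 kb. In lists of equal length the width ratio was 0.645, since that setting drops the narrow parental peaks.

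**Figure D2:**
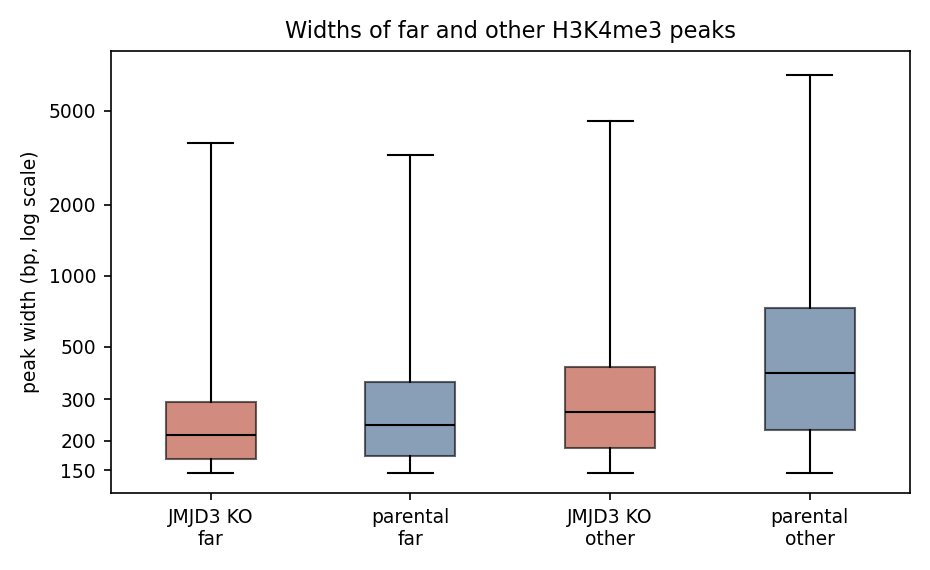
Width of H3K4me3 peaks in bp on a log axis, for far peaks (over 5 kb from every listed start) and other peaks of the JMJD3 KO and parental lists. Boxes show the quartiles and median and whiskers the narrowest and widest peak; the medians of far peaks, 211 bp in JMJD3 KO and 234 bp in parental cells, lie closer together than those of other peaks.

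Positions were shared between genotypes much less often far from starts. Of the knockout far peaks, 1112 (58.3%, interval 56.1 to 60.5%) were overlapped by a parental H3K4me3 peak by at least 1 bp, against 91.2% of knockout peaks that were not far. Of the parental far peaks, 1018 (27.2%, 25.8 to 28.7%) were overlapped by a knockout peak, against 55.8% of the others. That left 795 knockout far peaks (41.7%) with no parental counterpart, where 11.3% of all knockout peaks had none. It left 2719 parental far peaks (72.8%) with no knockout counterpart, where 47.4% of all parental peaks had none. With a peak of the other list allowed up to 1 kb away, 76.1% of knockout and 47.7% of parental far peaks had a counterpart. By the same measure 98.4% of the other knockout peaks and 84.8% of the other parental peaks had one. Part of the unshared far peaks thus lay beside a peak of the other genotype, which is not particular to far peaks.

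Width went with sharing, and the gap between far and other peaks was open at every width up to 1 kb. Of knockout far peaks up to 200 bp wide 42.8% were shared, against 82.8% of other knockout peaks of that width. In parental cells 12.1% of far peaks up to 200 bp were shared, against 21.7% of the others. From 501 to 1000 bp the shares were 95.6% in knockout and 67.7% in parental far peaks, against 99.5% and 80.4% of the others. Over 1 kb, all 10 knockout far peaks and 95.1% of parental ones were shared, beside 96.8% of other parental peaks over 1 kb. The median width of a shared far peak was 245 bp in knockout and 399.5 bp in parental cells, and that of an unshared one 181 bp in knockout and 208 bp in parental cells.

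**Figure D3:**
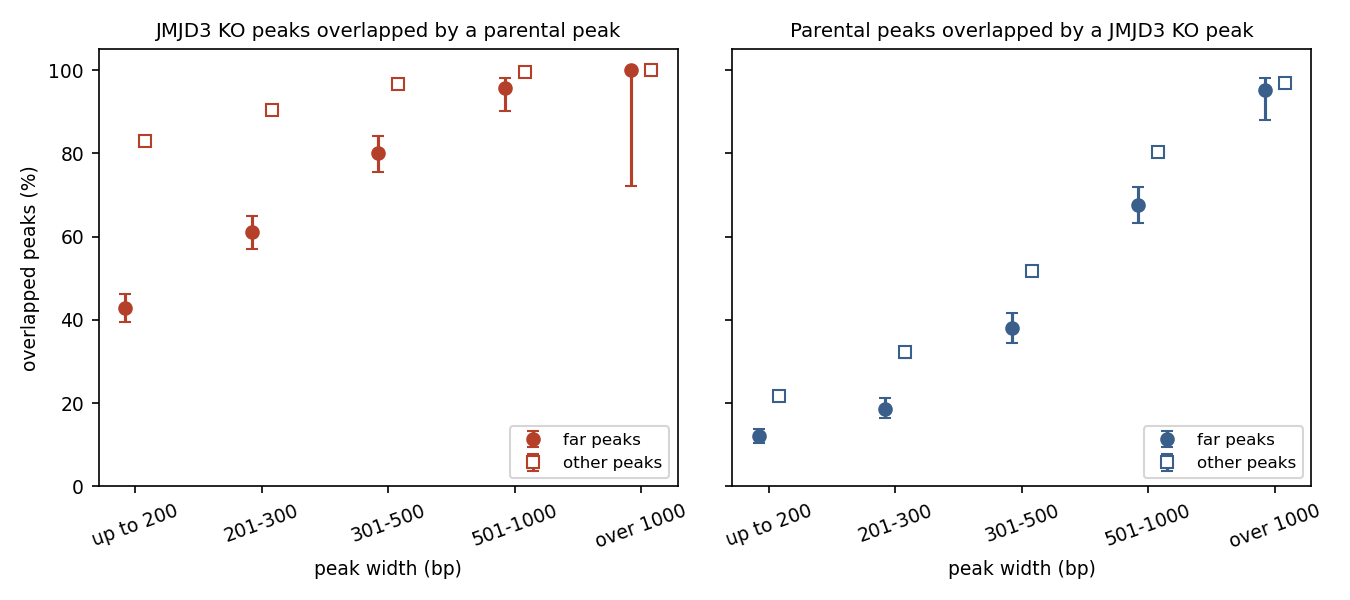
Share of H3K4me3 peaks overlapped by a peak of the other genotype, by peak width in bp, for JMJD3 KO peaks on the left and parental peaks on the right. Filled circles are far peaks and open squares other peaks, with 95% Wilson intervals; far peaks up to 200 bp are shared in 42.8% of cases in JMJD3 KO and 12.1% in parental cells.

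Merged over both lists, the far peaks formed 4446 distinct regions: 795 in knockout cells only, 932 in both and 2719 in parental cells only. In the 932 shared regions the summed width was lower in knockout cells, with a median log2 ratio of knockout to parental width of -0.52 (quartiles -1.10 and -0.01). It was wider in knockout cells in 227 of them (24.4%). Shared regions that were not far had a median of -0.69, with 13.1% wider in knockout cells. Only 4 knockout and 8 parental far peaks (0.210% and 0.214%) were overlapped by an H3K27me3 peak of the same genotype, the mark that JMJD3 removes, beside 0.221% and 0.350% of other H3K4me3 peaks. Far H3K27me3 peaks, found by the same rule, numbered 2227 in knockout and 2490 in parental cells, a ratio of 0.894 (0.845 to 0.947), nearer to 1 than that of far H3K4me3 peaks.

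Far peaks had near neighbours less often than other peaks. Another H3K4me3 peak of the same list lay within 1 kb of 47.3% of knockout and 57.6% of parental far peaks, against 82.2% and 90.7% of the others. Joining far peaks at most 1 kb apart gave 1384 groups in knockout and 2481 in parental cells, of which 340 and 812 held more than 1 peak. Of the groups with more than 1 peak, 83.5% in knockout and 55.7% in parental cells met a peak of the other genotype, against 46.7% and 17.1% of single peaks. A group counted as shared when any of its peaks was met, so it had more chances than a single peak. The largest group held 9 peaks in either list.

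The targeted gene comes first among genes. KDM6B (start at 7743234 on chromosome 17, hg19) had no far H3K4me3 peak in knockout cells and 2 in parental cells, 1081 bp in sum. The parental peaks ran from 7737274 to 7737468 and from 7737584 to 7738469, both 5 to 6 kb before the start, and neither met a knockout peak. They lie in a stretch where the knockout list was short throughout: chromosome 17 below 10 Mb held 2 far peaks in knockout and 21 in parental cells, and 110 and 307 other peaks. Since H3K4me3 says nothing about the coding sequence, the knockout itself is not checked by these peaks. KDM6A, the related demethylase on chromosome X, had no far peak in either genotype. Chromosome X as a whole had 23 far peaks in knockout and 64 in parental cells, a ratio of 0.359, with 0.371 for its other peaks. Across the remaining chromosomes the ratio of far peaks lay between 0.366 (chromosome 10) and 0.726 (chromosome 18). Without chromosome X, chromosome 17 below 10 Mb and chromosome 5 from 50 to 140 Mb the genome-wide ratio was 0.515.

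By gene, 3408 of the 18086 symbols in the files (18.8%) had a far H3K4me3 peak within 20 kb. It was in the knockout list only for 383 genes (2.12%), in both for 1360 (7.52%) and in the parental list only for 1665 (9.21%). In all, 9.64% of genes had one in knockout and 16.7% in parental cells. In lists of equal length the numbers were 633 in the knockout list only and 910 in the parental list only. With each peak given to its nearest gene alone, they were 282 in knockout only, 909 in both and 1229 in parental only. For the 909 genes nearest to far peaks of both lists, the log2 ratio of summed far width (knockout over parental) had a median of -0.83, with 187 (20.6%) wider in knockout cells, beside -1.01 for summed promoter width. The nearest gene of a far peak had a promoter peak in the same list for 62.6% of knockout and 69.2% of parental far peaks, beside 62.9% and 71.3% of all genes in the files. The nearest start was that of a protein-coding transcript for 79.4% of knockout and 79.8% of parental far peaks. That stood near the 81.5% of all listed starts, against 91.0% and 90.8% of the other peaks. The nearest start was a microRNA for 5.82% of knockout and 5.06% of parental far peaks, against 1.35% and 1.47% of the others and 2.94% of all listed starts.

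The genes with most far H3K4me3 in both lists include 1 non-coding gene with more of it in the knockout list. CCDC26, a long non-coding RNA gene on chromosome 8, had 18 far peaks of 14179 bp in sum in knockout cells and 20 of 12512 bp in parental cells, a log2 ratio of 0.18. Its far peaks were measured from the nearer of the listed starts at 130587264 and 130692485. CCDC26 held 4 of the 5 widest knockout far peaks, the first of 3672 bp from 130674881 to 130678552. It also held 1 of the 5 widest parental ones, of 2280 bp from 130676299 to 130678578. The wide knockout peak took in 2 parental peaks of 3391 bp in sum. Its promoter peaks summed to 1109 bp in knockout and 1917 bp in parental cells, so its far and its promoter width differed between genotypes in opposite directions. Chromosome 8 had a ratio of far peaks of 0.667, beside 0.819 for its other peaks.

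The other 7 of these 8 genes had less far H3K4me3 in the knockout list. LOC653712, listed with a non-coding transcript, had 9 peaks of 2771 bp in knockout and 7 of 5250 bp in parental cells, a log2 ratio of -0.92, 11 to 18 kb from its start. ZBTB7B, a zinc finger factor known for directing T cells to the CD4 lineage, had 7 peaks of 2775 bp in knockout and 6 of 5142 bp in parental cells (-0.89). Its widest parental peak, also the widest of all parental far peaks, ran over 3259 bp from 154980613 to 154983871 on chromosome 1, and 5 knockout peaks of 2343 bp in sum lay in the same place. One called region in parental cells thus stood against several smaller ones in knockout cells. ITGA1, the integrin alpha 1 chain whose start is printed above, had 4 peaks of 1914 bp in knockout and 6 of 4388 bp in parental cells (-1.20). Its widest parental peak of 3167 bp, from 52096192 to 52099358 on chromosome 5, was met by 3 knockout peaks of 1458 bp in sum. ITGA1 had the nearest start, but 2 genes were listed within 20 kb of that peak, as for the widest ZBTB7B peak. CAT, which encodes catalase, had 8 peaks of 2083 bp in knockout and 10 of 3502 bp in parental cells (-0.75), and its promoter peaks summed to 1283 bp in knockout and 3128 bp in parental cells.

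HSH2D, a blood cell adaptor with an SH2 domain, had 4 peaks of 1633 bp in knockout and 8 of 3836 bp in parental cells (-1.23). AP2S1, the small subunit of the AP-2 clathrin adaptor, had 5 of 1718 bp in knockout and 7 of 3474 bp in parental cells (-1.02). GRIN1, a subunit of the NMDA glutamate receptor, had 6 of 2230 bp in knockout and 4 of 2925 bp in parental cells (-0.39). LOC653712, ITGA1, HSH2D and GRIN1 had no promoter peak in either list, so 4 of the 8 genes carried far peaks beside a listed start with no H3K4me3 peak. Of all genes in the files, 27.7% had no promoter peak in either list. Among further wide peaks, LOC644172 on chromosome 17 had a peak of 1335 bp in knockout cells, from 43660909 to 43662243, against 1 of 1364 bp in parental cells at the same place. NES, which encodes the intermediate filament protein nestin, had 883 bp in 2 knockout peaks under a parental peak of 1966 bp, from 156630216 to 156632181 on chromosome 1.

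**Figure D4:**
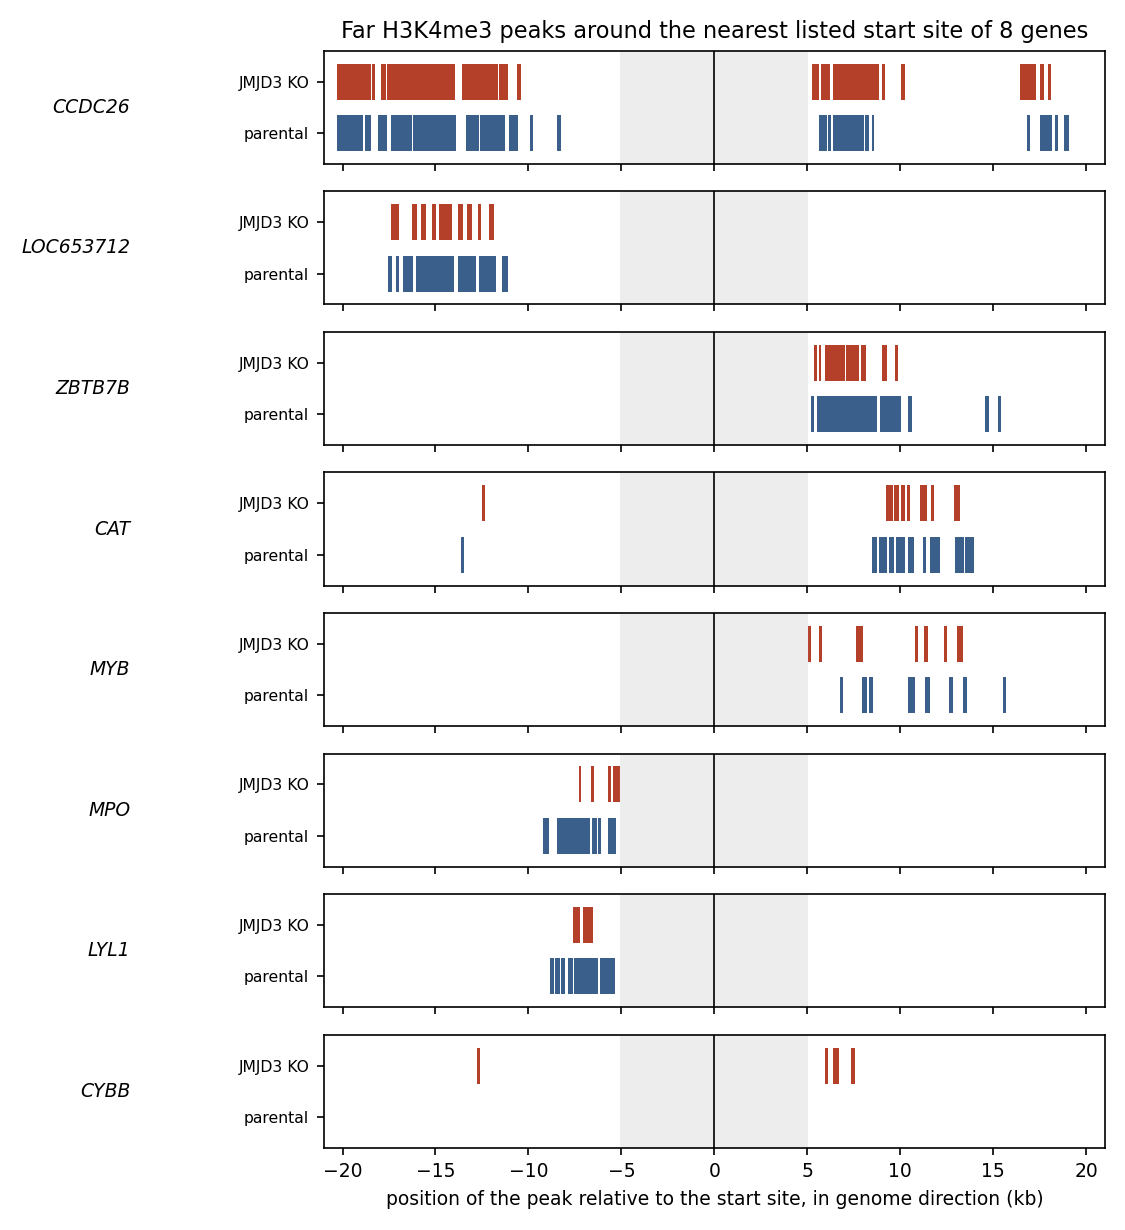
Far H3K4me3 peaks around 8 genes, drawn to scale as bars from their start to their end, JMJD3 KO above parental; the x axis is the position relative to the nearest listed start of the gene in kb, in genome direction, and the grey band is the 5 kb on either side. For CCDC26, peaks measured from different starts, at 130587264 and 130692485 on chromosome 8, are drawn on the same axis, so bars side by side can lie far apart. At LOC653712, ZBTB7B, MPO and LYL1 wide parental peaks face smaller JMJD3 KO peaks, CCDC26 is covered about alike in both, and CYBB has peaks in JMJD3 KO only.

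Among the groups with most neighbouring far peaks, those not yet named lay near 3 further genes. The TRA2B group, near a splicing factor gene on chromosome 3 (185646141 to 185650565), had 1 knockout peak of 273 bp against 9 parental peaks of 2339 bp. The ZNF217 group, near a zinc finger gene amplified in several cancers, had 5 knockout peaks of 1403 bp against 7 parental peaks of 3188 bp. The group near EGR4, an early growth response factor, had 6 knockout peaks of 1648 bp against 2 parental peaks of 2075 bp. None of these groups met an H3K27me3 peak.

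Genes with far H3K4me3 in the knockout list only had little of it. CYBB, the gp91-phox chain of the NADPH oxidase that makes superoxide in phagocytes, led with 4 knockout peaks of 928 bp in sum and none in parental cells. Its peaks lay at -12691, 6045, 6540 and 7453 bp from the start at 37639269 on chromosome X, and no promoter peak was listed in either genotype. This stands on a chromosome where the knockout list was otherwise short. ATP12A, a proton-potassium pump gene, followed with 3 peaks of 837 bp in knockout cells and none in parental cells, and its only promoter peak, of 146 bp, was also in knockout cells. NAA20, the catalytic part of an N-terminal acetyltransferase, had 1 peak of 701 bp in knockout cells, and ARPC3, a subunit of the Arp2/3 complex that nucleates actin, had 2 of 586 bp there. CABLES1, PQLC1, USPL1 and LINC01127 had between 558 and 589 bp in knockout cells and none in parental cells. CABLES1, PQLC1, USPL1, NAA20 and ARPC3 had promoter peaks in both lists, all wider in parental cells. The whole class thus reached at most 928 bp per gene.

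Genes with far H3K4me3 in the parental list only reached further. PRKCD, protein kinase C delta, a signalling kinase known in apoptosis, had 8 parental peaks of 2674 bp between 5028 and 11777 bp from its start, and none in knockout cells. Its promoter peaks summed to 1235 bp in knockout and 3064 bp in parental cells. IER2, an immediate-early gene, had 5 parental far peaks of 1440 bp and none in knockout cells, with promoter peaks of 3281 bp in knockout and 5439 bp in parental cells. SNX10, a sorting nexin, had 1395 bp in parental cells and none in knockout cells. FAM53B-AS1, LOC648987, LOC101926935 and PLEKHO1 had between 1449 and 1681 bp in parental cells and none in knockout cells. FAM53B-AS1, LOC101926935 and PLEKHO1 had no promoter peak in either list.

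Of 15 gene lists, 10 had far peaks near a larger share of their members than all genes in both genotypes, markers of other tissues and housekeeping genes among them, so such a share is not particular to a list. Of 37 transcription factors of the myeloid lineage in the files, 11 (29.7%) had a far peak in knockout cells and 16 (43.2%) in parental cells, beside 9.64% and 16.7% of all genes. They divided into 3 with far peaks in knockout only, 8 in both and 8 in parental only. Over all genes these states took 2.12%, 7.52% and 9.21%. In lists of equal length the numbers were 11 in knockout and 9 in parental cells. That setting drops narrow parental peaks only, so here and below knockout values cannot change and parental ones can only fall. An order or direction that turns round under it therefore does not compare the genotypes on equal terms. LYL1, a basic helix-loop-helix factor of blood progenitors, had 2 peaks of 852 bp in knockout and 6 of 3065 bp in parental cells. Joining neighbouring peaks turned this direction round, but joining counts gaps as width. A joined region that reaches peaks nearer the start can also leave the far class. SPI1, which encodes PU.1, the leading factor of myeloid fate, had 5 peaks of 1389 bp in knockout and 4 of 2523 bp in parental cells. The widest lay 15282 bp from its start in knockout cells, with 538 bp, and 15535 bp from it in parental cells, with 1529 bp. All SPI1 peaks were met by a peak of the other genotype, and all had another gene's start nearer, MIR4487 or MYBPC3. SPI1 is known from other work to be controlled by an element many kilobases before its start, and whether these peaks are that element was not tested.

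MYB, the factor that keeps progenitors cycling, had 7 peaks of 1510 bp in knockout and 8 of 1885 bp in parental cells, lying 5 to 16 kb past its start in genome direction. Its direction turned round in lists of equal length. RUNX1, a core-binding factor needed for blood formation, had 2 peaks of 984 bp in knockout and 4 of 1595 bp in parental cells. FLI1, IRF1 and KLF4 had a far peak in knockout cells only, of 320, 196 and 160 bp. Another gene's start was nearer to that of FLI1. GFI1, a transcriptional repressor among the 8 factors with far peaks in parental cells only, had 513 bp in 2 peaks there.

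Immediate-early and AP-1 genes, which answer to growth factors and stress, had far peaks in 10 of 29 (34.5%) in knockout and 13 (44.8%) in parental cells. Over all genes the shares were 9.64% in knockout and 16.7% in parental cells. FOSB had 3 peaks of 567 bp in knockout and 7 of 2056 bp in parental cells, and all 3 of the knockout peaks had another gene's start nearer. TXNIP, a thioredoxin inhibitor, had 1138 bp in 3 peaks in knockout and 1272 bp in 4 in parental cells, and ZFP36L2, an mRNA decay factor, had 460 bp in 2 in knockout and 1044 bp in 3 in parental cells. Both directions turned round with joined peaks, where a region can leave the far class, and that of TXNIP also in lists of equal length. Regulators of actin and small GTPases had far peaks in 9 of 25 genes (36.0%) in knockout and 11 (44.0%) in parental cells, beside the same shares of all genes. By nearest gene they had them in 7 of either. LCP1, the actin bundler L-plastin, had 7 peaks of 1783 bp in knockout and 8 of 3247 bp in parental cells. ELMO1, a partner of DOCK proteins in Rac activation, had 4 peaks in both, of 1911 bp in knockout and 2267 bp in parental cells, a direction that turned round for peaks of at least 300 bp. ARHGDIB had 1071 bp in knockout and 1316 bp in parental cells, and RHOH 841 bp in knockout and 825 bp in parental cells, with directions that turned round under 3 alternatives each.

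Genes of granule proteins had far peaks in 5 of 21 (23.8%) in knockout and 6 (28.6%) in parental cells, beside 9.64% and 16.7% of all genes. In lists of equal length 5 had them in either. MPO, myeloperoxidase, had 4 peaks of 1287 bp in knockout cells, with 146, 163, 162 and 816 bp, and 5 peaks of 3022 bp in parental cells, with 334, 1807, 271, 167 and 443 bp. Those peaks lay 5052 to 7223 bp before the start in genome direction in knockout cells and 5490 to 9040 bp before it in parental cells. The 4 knockout peaks were all met by parental peaks, while the parental peaks of 334 and 167 bp met no knockout peak. LYZ, lysozyme, had 3 parental peaks of 803 bp, 17 to 18 kb from its start, and none in knockout cells, with no promoter peak in either list. RNASE2 had 299 bp in knockout and 391 bp in parental cells, and BPI 146 bp in knockout and 383 bp in parental cells.

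Myeloid receptors had far peaks in 3 of 23 genes (13.0%) in knockout and 7 (30.4%) in parental cells, beside 9.64% and 16.7% of all genes. In lists of equal length, which can lower the parental number only, 3 had them in knockout and 2 in parental cells. ITGAL, the alpha chain of LFA-1, had 780 bp and CSF2RB, the shared chain of the GM-CSF receptor, 337 bp in parental cells, and neither had any in knockout cells. FCGR1A, a high-affinity receptor for IgG, had 146 bp in knockout and 545 bp in parental cells, and the adhesion receptor CD44 had 159 bp in knockout and 149 bp in parental cells. Inflammatory and NF-kB genes, among which JMJD3 is best known in macrophages, had far peaks in 3 of 19 (15.8%) in knockout and 7 (36.8%) in parental cells, beside 9.64% and 16.7% of all genes, and in 3 of either in lists of equal length. TNF had 316 bp in knockout and 801 bp in parental cells, TNFAIP3 197 bp in knockout and 253 bp in parental cells, and CXCL8 146 bp in knockout and 192 bp in parental cells. For TNF and TNFAIP3 another gene's start was nearer to every peak. The directions of FCGR1A and CXCL8 turned round in lists of equal length. CCL2 had 340 bp in parental cells and none in knockout cells.

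Interferon-stimulated genes had far peaks in 3 of 22 (13.6%) in knockout and 5 (22.7%) in parental cells, near the 9.64% and 16.7% of all genes. BST2 had 240 bp in knockout and 670 bp in parental cells. IFIT2 and IFI6 had 496 and 422 bp in parental cells and none in knockout cells. Leukaemia and stem cell genes had far peaks in 5 of 23 (21.7%) in knockout and 8 (34.8%) in parental cells, beside 9.64% and 16.7% of all genes. In lists of equal length they had them in 5 of either, and for peaks of at least 300 bp in 0 in knockout and 4 in parental cells. WT1 had 530 bp in knockout and 1315 bp in parental cells, and the receptor kinase gene FLT3 had 686 bp in knockout and 984 bp in parental cells, with a promoter peak of 146 bp in parental cells and none in knockout cells. MYC had 237 bp in knockout and 497 bp in parental cells, and the DNA methyltransferase gene DNMT3A had 146 bp in knockout and 535 bp in parental cells.

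The enzymes and readers of histone methylation had far peaks in 3 of 35 genes (8.57%) in knockout and 9 (25.7%) in parental cells, KDM6B among them, beside 9.64% and 16.7% of all genes. SETD1B, an H3K4 methyltransferase, had 576 bp in 1 knockout peak and 1894 bp in 4 parental peaks. The Polycomb readers CBX8 and CBX7 had 503 and 223 bp in knockout cells and 1879 and 1158 bp in parental cells. KMT2D, a major H3K4 monomethylase of enhancers, had 889 bp in 1 parental peak and none in knockout cells. Developmental transcription factors had far peaks in 3 of 35 (8.57%) in knockout and 9 (25.7%) in parental cells. In lists of equal length 3 had them in knockout and 4 in parental cells. SOX4 had 2 peaks of 1003 bp in knockout and 1 of 1552 bp in parental cells. DLX1 had 172 bp in knockout and 961 bp in parental cells, and the peak of 961 bp lay nearer to DLX2, which had none in knockout cells, so by nearest gene the direction of DLX1 turned round. LHX2 had 364 bp in parental cells and none in knockout cells.

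Cell cycle genes had far peaks in 2 of 30 (6.67%) in knockout and 3 (10.0%) in parental cells, beside 9.64% and 16.7% of all genes. In lists of equal length, which can lower the parental number only, the numbers were 2 in knockout and 1 in parental cells. By nearest gene they were 0 in knockout and 2 in parental cells. CDT1, a replication licensing factor, had 173 bp in knockout and 494 bp in parental cells, CDK2 351 bp in knockout and 261 bp in parental cells, and CCNB2 158 bp in parental cells alone. The direction of CDT1 turned round in lists of equal length and that of CDK2 with a limit of 3000 bp. RAB5B had its start nearer to every CDK2 peak, and PIEZO1 to all CDT1 peaks but 1 parental one. Ribosomal and housekeeping genes had far peaks in 4 of 30 (13.3%) in knockout and 6 of 30 in parental cells, and in lists of equal length in 4 in knockout and 3 in parental cells. GAPDH had 487 bp in knockout and 975 bp in parental cells, and RPL10A 157 bp in knockout and 182 bp in parental cells. For RPL10A another gene's start was nearer to every peak, as it was to all 3 parental peaks of GAPDH, whose direction turned round by nearest gene. The direction of RPL10A turned round in lists of equal length. Among genes with a far peak, the median summed width was 293 bp over all genes in knockout and 358 bp in parental cells. In knockout and parental cells it was 320 and 487.5 bp for the myeloid factors, 381.5 and 675 bp for the immediate-early genes, and 399 and 465 bp for the actin and GTPase regulators. It was lower than over all genes for myeloid receptors (159 and 226 bp), inflammatory genes (197 and 253 bp) and developmental factors (172 and 199 bp). Ribosomal and housekeeping genes had 507 and 486.5 bp and histone methylation genes 503 and 889 bp, so a higher median is not particular to myeloid lists.

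Markers of other cell types were checked in the same way. Lymphoid markers had far peaks in 2 of 11 genes (18.2%) in knockout and 1 (9.09%) in parental cells, led by CD4 with 340 bp in knockout and 146 bp in parental cells and ZAP70 with 359 bp in knockout and none in parental cells. Of 7 erythroid and megakaryocyte markers none had one in knockout and 1, ANK1 with 324 bp, in parental cells. Epithelial, fibroblast and neuronal markers had them in 4 of 14 genes (28.6%) in knockout and 3 (21.4%) in parental cells, beside 9.64% and 16.7% of all genes, and by nearest gene in 2 in knockout and 1 in parental cells. COL1A1 had 171 bp in knockout and 672 bp in parental cells, KRT8 334 bp in knockout and 497 bp in parental cells, ACTA2 373 bp in knockout cells alone and SYP 500 bp in parental cells alone. Promoter peaks were listed for 2 of these 14 genes in knockout and 4 in parental cells, and for 10 and 12 of the 21 granule protein genes. COL1A1, KRT8 and SYP had no promoter peak in either list. Another gene's start was nearer to every peak of CD4, COL1A1, ACTA2 and SYP.

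**Figure D5:**
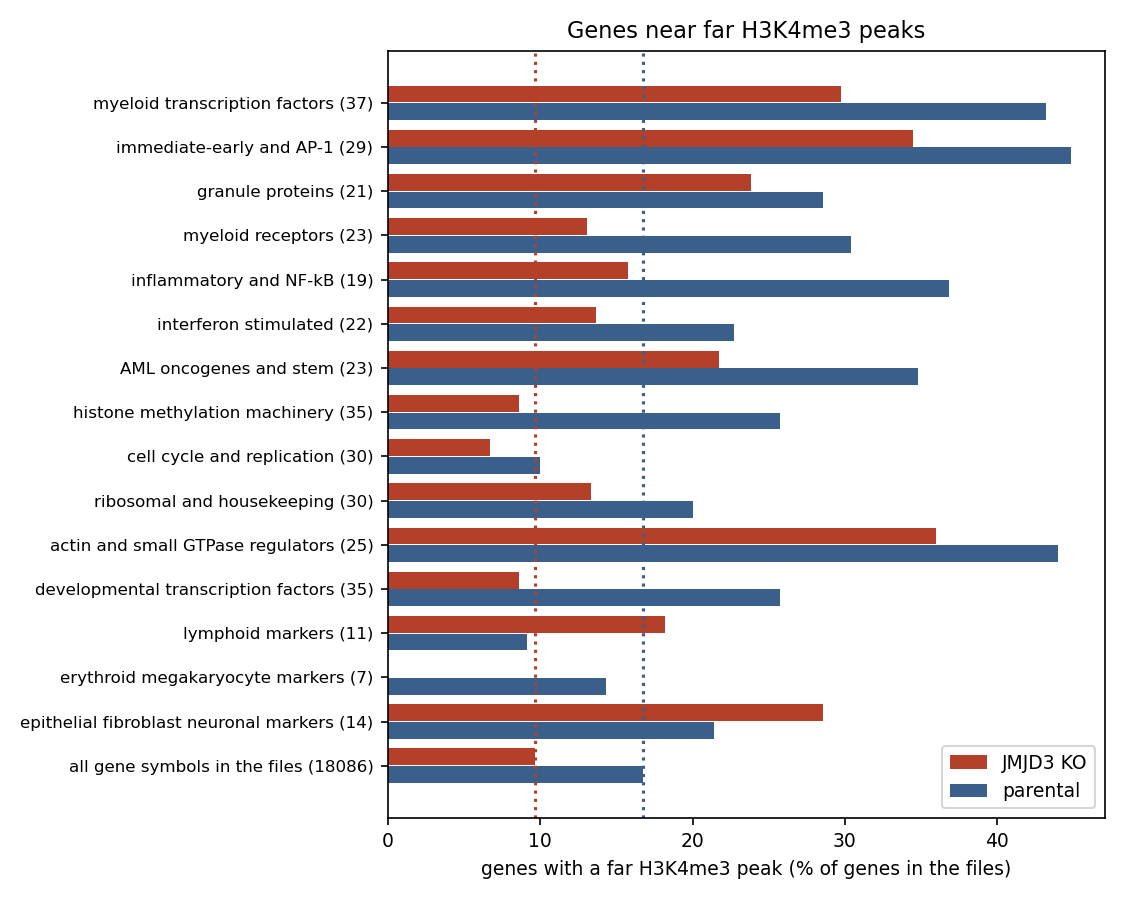
Share of the genes of each list (number in the files in brackets) with a far H3K4me3 peak within 20 kb, in percent, for JMJD3 KO above parental in each pair; dotted lines mark all gene symbols, at 9.64% in JMJD3 KO and 16.7% in parental cells. Of the 15 lists, 10 lie above the line of their genotype in both, among them myeloid transcription factors (29.7% in JMJD3 KO and 43.2% in parental cells) and epithelial, fibroblast and neuronal markers (28.6% in JMJD3 KO and 21.4% in parental cells).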

How the data were processed

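Chromatin immunoprecipitation sequencing of H3K4me3 and H3K27me3 was deposited as 4 peak lists, 1 per genotype and mark. Per the submitters' processing notes, BWA 0.7.10, SAMtools, MACS2 2.1.1 and the build hg19 were used; settings, and the use of the inputs as controls, are not given in the sources used here. Per the file headers, each line holds a peak, a transcript, a gene symbol, a distance in bp and a score. The distance deposited by the authors is the peak centre minus the start site in genome direction. The score deposited by the authors depends on that distance alone (largest error 5e-13) and was not used as peak strength. Peak numbers ran to 27693 in the knockout and 38524 in the parental H3K4me3 list, where 2750 and 5054 numbers have no line and were not analysed here. The antibody label of the H3K27me3 libraries names H3K4me3, and the mark was taken from the title.

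Distinct peaks were taken by chromosome, start and end. Starts were read as counted from 0 and printed from 1; another convention would move starts by 1 bp. Overlaps of at least 1 bp were checked with bedtools 2.31.1, and the steps were tested on simulated data. Intervals are 95% Wilson intervals, for ratios from the knockout share of both counts. A gene had a far peak when any line paired them; a promoter peak was a peak with its centre at most 5 kb from a listed start, or spanning it. Values by gene list use all pairs, and the 8 genes of each state use nearest genes. The members and the 15 gene lists were chosen with earlier results of these data known. Named were KDM6B, the 8 genes with most summed width of each state, the 5 widest peaks and the 5 largest groups of each list, up to 4 members per list by summed width, and 3 peaks on each side of the limit; FLI1, IRF1, KLF4, GFI1 and KMT2D were named after their values were seen. Some genes that the rule names are not reported here. Peak sequences were not printed, since no hg19 genome was used here.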

Additional observations from a re-analysis of the deposited data

How the results depend on the processing

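Depth is unknown, so a missing peak is not shown to be a missing mark, and each genotype is 1 library. No paired analysis was possible because each genotype had 1 library per mark. The ratio of far peaks was 0.354 for peaks of at least 300 bp, 0.900 in lists of equal length and 0.564 with peaks at most 1 kb apart joined. The ratio of median widths was 0.645 in lists of equal length and 0.784 with joined peaks. The shared part of knockout far peaks was 61.4% with a limit of 3000 bp, 56.1% with 10000 bp, 69.0% for peaks of at least 300 bp, 49.7% in equal lists, 48.8% with at least 50% of the peak covered and 76.1% within 1 kb. That of parental far peaks was 23.4% from 300 bp, 38.7% in equal lists, 30.5% joined, 15.3% with 50% covered and 47.7% within 1 kb. Far peaks made up 11.0% of the knockout list with 3000 bp, 4.19% with 10000 bp, 4.36% from 300 bp and 11.3% joined. They made up 16.0% of the parental list with 3000 bp, 5.91% with 10000 bp, 6.37% from 300 bp, 8.50% in equal lists and 17.5% joined. Genes with far peaks in both lists numbered 682 with 10000 bp and 439 from 300 bp. Those in knockout only numbered 243 with 10000 bp, 125 from 300 bp and 633 in equal lists, and those in parental only 897, 918 and 910.

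The knockout minus parental width changed sign in 19 of 522 values of named genes. In equal lists it was 56 bp for ARHGDIB, 173 for CDT1, 146 for CXCL8, 146 for FCGR1A, 337 for MYB, 157 for RPL10A and 405 for TXNIP. From 300 bp it was 384 bp for ARHGDIB, 12 for ELMO1 and -26 for RHOH. With joined peaks it was 1517 bp for ARHGDIB, 1044 for LYL1, 32 for TXNIP and 460 for ZFP36L2. With 3000 bp it was -412 bp for CDK2 and -519 for RHOH, and with 10000 bp -110 for RHOH. By nearest gene it was 172 bp for DLX1 and 146 for GAPDH. Equal lists drop parental peaks only, so under that setting the difference could only rise. Joining counts gaps as width and can carry a region out of the far class when it takes in peaks nearer a start. Of 210 gene list counts, 81 moved by over 1.5 times. The cause was not tested.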
